A study of Mus musculus with 84 samples.

Results

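Complement components and receptors were followed through 4 histone marks in adipocyte nuclei of mice that became obese and lost weight again. The 7 genes were C1qa, C1qb, C1qc, C3, C3ar1, C5ar1 and Cfb. They were chosen by name from 21851 protein-coding genes, with earlier results of these data known. The nuclei came from epididymal fat of male AdipoERCre x NuTRAP mice, in which the adiponectin promoter drives a tamoxifen-inducible Cre that switches on a tag on the nuclei of adipocytes, so that tagged nuclei could be pulled out of frozen tissue. All groups carried the Cre and the reporter and received tamoxifen, controls included. In the 12-week cohort, C mice had eaten chow and H mice a high-fat diet (HFD) for 12 weeks, both to 18 weeks of age, whereas HC mice had 8 further weeks on chow after the HFD and were compared with chow-fed CC_s mice, both at 26 weeks. In the 25-week cohort the corresponding groups were CC_l (chow) and HH (25 weeks of HFD), both at 31 weeks of age, and CCC (chow) and HHC (25 weeks of HFD, then 8 weeks of chow), both at 39 weeks. H and HH are the obese groups here, and HC and HHC the weight-loss groups. CUT&Tag, which cuts out and sequences DNA next to an antibody-bound histone mark, gave 84 libraries, 21 for H3K4me3, 21 for H3K27ac, 22 for H3K4me1 and 20 for H3K27me3, with 2 or 3 libraries per group and mark.

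Complement is a set of plasma and membrane proteins that tags microbes, dying cells and immune complexes. C1qa, C1qb and C1qc encode the chains of C1q, which recognises antibody and other ligands and starts the classical pathway, and they are made mainly by macrophages. C3 is the protein at which all routes meet, and Cfb (factor B) is the protease subunit of the alternative-pathway convertase that cleaves C3. C3ar1 and C5ar1 encode the receptors for the anaphylatoxins C3a and C5a and are typical of myeloid cells. Adipocytes are a known source of C3, factor B and factor D, whose gene Cfd was first known as adipsin. H3K4me3 and H3K27ac lie at active promoters, H3K27ac and H3K4me1 at enhancers, and H3K27me3, laid down by Polycomb, covers genes that are kept silent.

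In GRCm38, the 3 C1q genes lie side by side on the minus strand of chromosome 4, with C1qb at chr4:136880129-136886187, C1qc at chr4:136889804-136893065 and C1qa at chr4:136895917-136898803. Their start sites are 6878 and 5738 bp apart, so that promoter windows of 2000 bp either side of each start do not overlap. C3 lies at chr17:57203970-57228136, Cfb at chr17:34856374-34862518, C3ar1 at chr6:122847138-122856161 and C5ar1 at chr7:16246743-16259540, all on the minus strand. Cfb stands in the dense class III part of the major histocompatibility complex, and 8 other coding genes lie within 50 kb of it.

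The promoters of 5 of the 7 genes are in the RefSeq table for GRCm38.p6, C1qa and Cfb being absent from it. Bases before the start site are shown here for those 5. These stretches lie inside the promoter windows, and a peak can touch a window of 2000 bp either side without lying over them. Each is written 5′ to 3′ on the gene's own strand, and capitals mark matches to a short list of motifs searched on both strands. The C1qc stretch ends where an exon of another annotation begins. The stretches are chr4:136886201-136886450 for C1qb, chr4:136893066-136893164 for C1qc, chr17:57228137-57228386 for C3, chr6:122856158-122856407 for C3ar1 and chr7:16259339-16259588 for C5ar1.
C1qb: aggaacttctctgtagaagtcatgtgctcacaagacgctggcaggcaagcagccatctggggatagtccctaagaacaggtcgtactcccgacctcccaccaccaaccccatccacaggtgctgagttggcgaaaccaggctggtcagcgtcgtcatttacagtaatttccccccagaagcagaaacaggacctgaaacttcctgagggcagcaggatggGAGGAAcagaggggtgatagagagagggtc
C1qc: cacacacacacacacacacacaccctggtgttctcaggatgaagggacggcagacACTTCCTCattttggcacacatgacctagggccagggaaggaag
C3: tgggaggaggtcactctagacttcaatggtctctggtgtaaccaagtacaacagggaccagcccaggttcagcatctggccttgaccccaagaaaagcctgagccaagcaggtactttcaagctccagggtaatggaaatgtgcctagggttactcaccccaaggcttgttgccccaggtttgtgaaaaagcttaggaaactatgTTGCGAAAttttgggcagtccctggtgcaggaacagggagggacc
C3ar1: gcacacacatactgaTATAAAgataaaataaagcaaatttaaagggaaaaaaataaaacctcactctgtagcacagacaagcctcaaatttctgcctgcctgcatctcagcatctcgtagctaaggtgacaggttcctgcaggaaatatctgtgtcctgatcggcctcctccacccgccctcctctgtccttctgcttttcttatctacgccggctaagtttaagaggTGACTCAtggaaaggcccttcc
C5ar1: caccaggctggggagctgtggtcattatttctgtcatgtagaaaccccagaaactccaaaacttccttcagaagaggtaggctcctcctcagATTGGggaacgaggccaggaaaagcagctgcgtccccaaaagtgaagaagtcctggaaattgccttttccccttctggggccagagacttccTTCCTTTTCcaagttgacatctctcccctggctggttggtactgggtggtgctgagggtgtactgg

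The capitals in C1qb are the core GAGGAA of the motif of PU.1, a myeloid factor, which is present in 28.3% of 32851 RefSeq promoters of 300 bp. C1qc carries the longer PU.1 form GAGGAAGT on the opposite strand, found in 3.20% of promoters, with the core inside it. C3 carries a C/EBP motif (TTGCNNAA, 10.8% of promoters) at 45 to 38 bases before the start, and C/EBP proteins are adipocyte and acute-phase factors. C3ar1 carries an AP-1 motif (TGANTCA, 7.81%) close to the start and TATAAA (13.6%) farther upstream. C5ar1 carries an IRF motif (GAAANNGAA, 8.56%) and a CCAAT box (37.4%), both on the opposite strand. STAT (TTCNNNGAA) and NF-kB (GGGANNTTC) letters were in none of these 5 windows of 300 bp, against 8.30% and 3.94% of all promoters. A match is a string of letters and not a bound site.

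Presence of a peak means that the promoter window touched at least 1 of the peaks called in that library, that is, one of its strongest blocks of signal, and its absence does not show that the mark was missing. Width was the number of base pairs (bp) of the window under peaks. The lists carry no read depth and their signal was not scaled between libraries, so heights were not compared between groups. Peak numbers ranged from 11249 (H3K4me3, H replicate 3) to 41976 (H3K4me3, HHC replicate 3) among H3K4me3 libraries, and H replicate 3 was also the shortest H3K27ac list at 12174 peaks. In 4 H3K4me3 libraries of the 25-week cohort the submitters' treatment entry names another group than the title. They are CC_l replicate 2 (HH by the entry), HH replicate 2 (CCC), HH replicate 3 (CC_l) and CCC replicate 3 (HH). The title was followed, and H3K4me3 values of groups, marker counts and states follow it unless the treatment entry is named beside them. Differences are diet minus age-matched control, averaged over the cohorts, and p is from a two-sided exact permutation test with labels permuted within cohorts. No promoter of any gene passed after Benjamini-Hochberg adjustment over all promoters tested, with an adjusted p of 1 for presence in every mark and contrast and no lower than 0.237 for width, so every p below is unadjusted and was called at 0.05. The lowest adjusted p of a single member's locus was 0.116 (Cfb, H3K27ac). In bulk nuclei, fewer nuclei of a kind and less mark per nucleus cannot be told apart.

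The members fell into separate classes of marking (the plot of member promoters by library). Cfb had an H3K4me3 peak in 20 of 21 libraries and C3 in 17, whereas C1qc had one in 11, C5ar1 in 9, C1qb in 6, and C1qa and C3ar1 in 5 each. H3K27ac gave the same picture, with 20 of 21 libraries for both C3 and Cfb and 8 or fewer for each of the others. H3K4me1 covered C3 in 21 and Cfb in 20 of 22 libraries, C1qb in 1 and the remaining 4 genes in none. H3K27me3 was the reverse, with a peak over C1qc in 17, C1qa in 16 and C1qb in 14 of 20 libraries, and over C3, C3ar1, C5ar1 and Cfb in 4 or fewer.

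**Figure D1:**
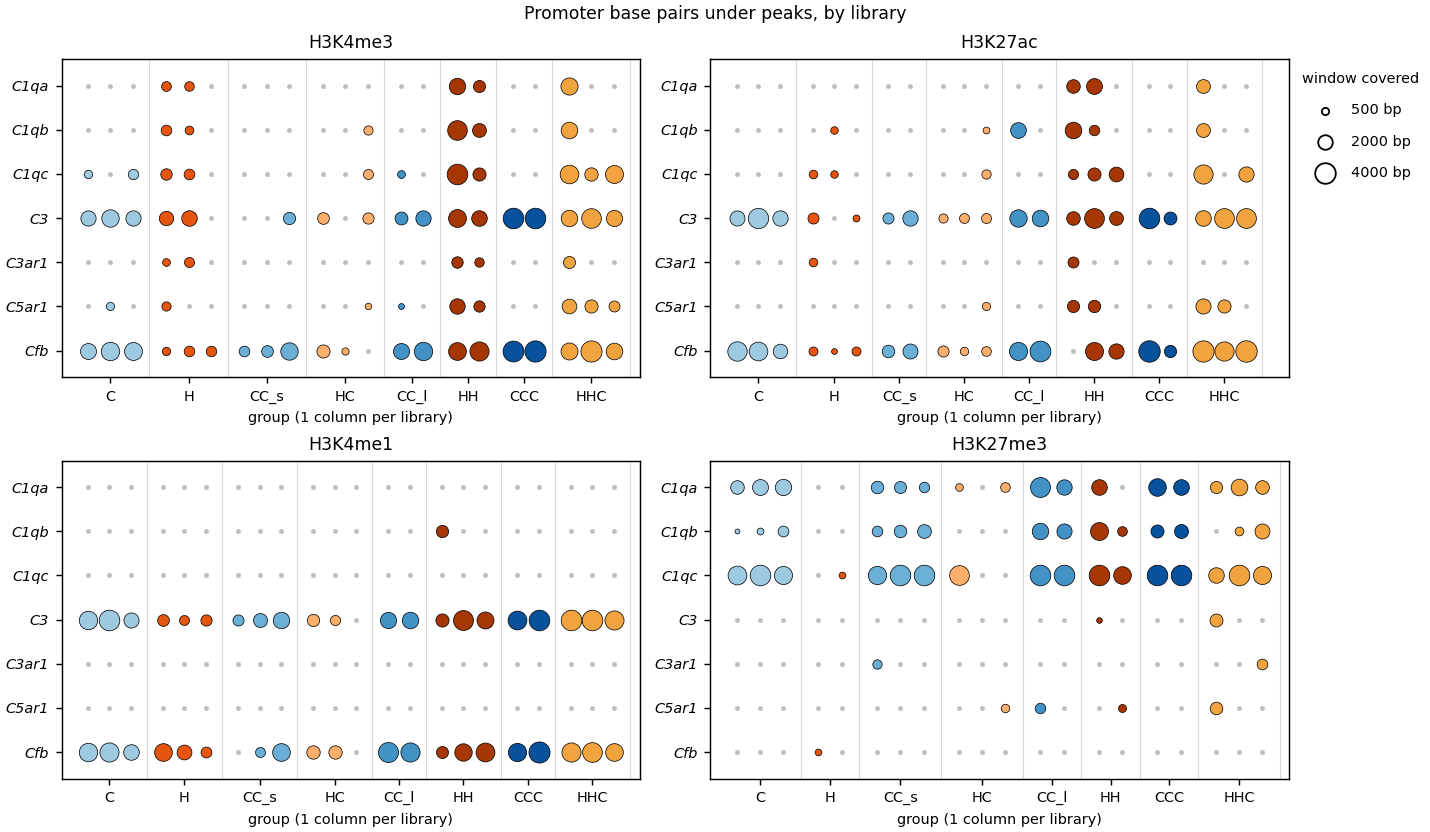
Base pairs of each member's promoter window under peaks (area of the circle, grey dots for no peak) in every library (columns, coloured by diet group) for the 4 marks. C3 and Cfb are marked by H3K4me3, H3K27ac and H3K4me1 in nearly all libraries, the C1q genes by H3K27me3 in all 10 control libraries, and C1qa, C1qb and C3ar1 by H3K4me3 in diet libraries and no control library by title.

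Within the libraries, the C1q peaks of H3K27me3 stood among the strongest. The strongest peak over C1qc had a signal at or above that of a median 97.2% of its library's peaks, and that over C1qa 95.6%, while that over C1qb ranked lower at 60.2%. H3K4me3 peaks over C1qa, C1qb and C1qc ranked near the middle (medians 46.9, 37.4 and 46.04%), and those over C3ar1 and C5ar1 in the lower part (19.9 and 23.3%). For C3 and Cfb the ranks were 63.7 and 67.9% in H3K4me3, 80.6 and 83.2% in H3K27ac and 92.4 and 80.4% in H3K4me1.

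Counted over the 7 members, obese mice had on average 2.83 more H3K4me3-marked promoters per library than their controls and weight-loss mice 2 more. For H3K27ac the differences were 1.75 and 1.5, for H3K4me1 0.167 and -0.167, and for H3K27me3 -1 and -0.667. Each of the H3K4me3 and H3K27ac differences turned negative under at least 1 alternative. By the treatment entry the H3K4me3 difference in obese mice was -0.917, with the strongest 50% of each library's peaks it was 0.583, and with equal peak numbers per library the weight-loss difference was -0.167. For H3K27ac, equal peak numbers gave -0.167 and -0.0833, and the obese difference was -0.333 with the strongest 50% of peaks. The counts carry no test, since the genes were chosen with earlier results known. Over single members, 44 comparisons of a mark and contrast had a peak in any library, and presence passed in 5 of them (3 higher, 2 lower) and width in 8 (3 higher, 5 lower). Over all promoters and the same marks and contrasts, 1.67% of presence and 7.88% of width comparisons passed.

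At C1qa, the H3K4me3-covered width was 0 bp in all 10 control libraries, 902, 866 and 0 bp in H, 2549 and 1391 bp in HH, 0 bp in the 3 HC libraries, and 2780, 0 and 0 bp in HHC. At C1qb it was again 0 bp in every control, 1080, 725 and 0 bp in H, 3639 and 1815 bp in HH, 0, 0 and 808 bp in HC, and 2613, 0 and 0 bp in HHC. Both HH libraries thus stood above both CC_l libraries, and in H the library without a peak was replicate 3, which has the shortest peak list. Presence of both was 83.3 percentage points higher with obesity (exact permutation p = 0.0667), and the widths were 1280 and 1664 bp larger (exact permutation p = 0.0667 for each). Leaving out 1 library at a time gave 75 points (without H replicate 1 or 2) to 100 points for each gene, the latter only without H replicate 3, the one obese library that lacked the peaks (exact permutation p = 0.0667 for presence in the other 9 cases and 0.0167 in this one). By the treatment entry presence differed by 8.33 points for each gene and width by -53.1 and -153 bp (exact permutation p = 1 for each), and 2 of 10 control libraries carried each peak. Both promoters, and C3ar1, were marked in both HH libraries and in neither CC_l library by title but not by the treatment entry, a pattern that 1.91% of promoters showed by title.

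At C1qc, H3K4me3 covered 670, 0 and 1017 bp in C, 1241, 1085 and 0 bp in H, 0 bp in all CC_s, 0, 0 and 946 bp in HC, 573 and 0 bp in CC_l, 4001 and 1639 bp in HH, 0 bp in both CCC, and 3272, 1683 and 3060 bp in HHC. Unlike its neighbours, C1qc thus had a peak in 3 control libraries by title (5 by the treatment entry), and after weight loss every HHC library was covered and no CCC library. Presence was 66.7 points higher after weight loss and width 1494 bp larger (exact permutation p = 0.05 for each), 1.00% of promoters passing for higher presence and 5.05% for larger width. In the obese contrast the C1qc difference was 25 points (exact permutation p = 0.8), and -50 points by the treatment entry (exact permutation p = 0.267). With an equal number of peaks kept per library, the weight-loss difference in presence was 0 (exact permutation p = 1), and by the treatment entry 41.7 points (exact permutation p = 0.2). The pattern of all HHC and no CCC libraries, shared with C5ar1, was seen at 1.97% of promoters by title, and neither gene showed it by the treatment entry.

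H3K27ac over C1qc was present only in diet libraries. It covered 0 bp in all 9 control libraries, 703, 534 and 0 bp in H, 0, 0 and 816 bp in HC, 981, 1625 and 2068 bp in HH, and 3486, 0 and 2193 bp in HHC. Presence rose by 83.3 points and width by 985 bp in obese mice (exact permutation p = 0.02 for each), and 0.330% and 0.909% of promoters passed in that direction. It was marked in every HH and no CC_l library, as were 0.724% of promoters. With an equal number of peaks per library the difference was 0 (exact permutation p = 1). C1qa had H3K27ac peaks in 3 libraries, 1746 and 2368 bp in HH and 1801 bp in HHC, and C1qb in 6, of which 1 was a control (2333 bp in CC_l replicate 1).

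The repressive mark went the other way. H3K27me3 covered C1qa by 1752, 2383 and 2535 bp in C and by 0 bp in both H libraries, by 1484, 1372 and 1019 bp in CC_s and by 560, 0 and 880 bp in HC. In the 25-week cohort the widths were 3748 and 2230 bp in CC_l, 2299 and 0 bp in HH, 2915 and 2313 bp in CCC, and 1414, 2617 and 1772 bp in HHC. The H and HC libraries were all below their controls, whereas HH and HHC overlapped theirs. In obese mice presence over C1qa fell by 75.0 points (exact permutation p = 0.05) and width fell by 2031 bp (exact permutation p = 0.0333). Among all promoters, 1.01% passed for lower presence and 9.19% for smaller width. After weight loss the width fell by 746 bp (exact permutation p = 0.035), a direction in which 9.12% of promoters passed.

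At C1qb the H3K27me3 width was 231, 447 and 1091 bp in C, 0 bp in both H, 1065, 1484 and 1792 bp in CC_s, and 0 bp in all 3 HC libraries. It was 2564 and 2165 bp in CC_l, 3042 and 892 bp in HH, 1611 and 1834 bp in CCC, and 0, 728 and 2121 bp in HHC. No H or HC library thus had a peak in the C1qb window, and every control library did. In C replicates 1 and 2 that peak only touched the edge of the window. Those 2 peaks ended 10.85 and 11.06 kb from the C1qa start, short of the C1qb start at 12.62 kb. Presence fell by 66.7 points (exact permutation p = 0.05) and width fell by 1110 bp (exact permutation p = 0.035) after weight loss, and 1.88% of promoters passed for lower presence. In the obese contrast its presence was 50 points lower (exact permutation p = 0.1), with -100 points in the 12-week and 0 in the 25-week cohort, a gap between the cohorts that did not pass (exact permutation p = 0.1). The C1qa and C1qb windows were touched by a peak in every C and no H library, as 6.13% of promoters were. The C1qb window was so in every CC_s and no HC library, as 2.78% were.

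C1qc was the most fully covered, with 3074 to 4001 bp of its 4001 bp window in all 10 control libraries. The widths were 0 and 424 bp in H, 3674, 0 and 0 bp in HC, 4001 and 2935 bp in HH, and 2275, 4001 and 3090 bp in HHC. The width fell by 1894 bp in obese mice (exact permutation p = 0.05), and the weight-loss difference was -1688 bp (exact permutation p = 0.065). In 9 of 20 libraries a single H3K27me3 peak ran over neighbouring C1q promoters, 8 of them control libraries.

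**Figure D2:**
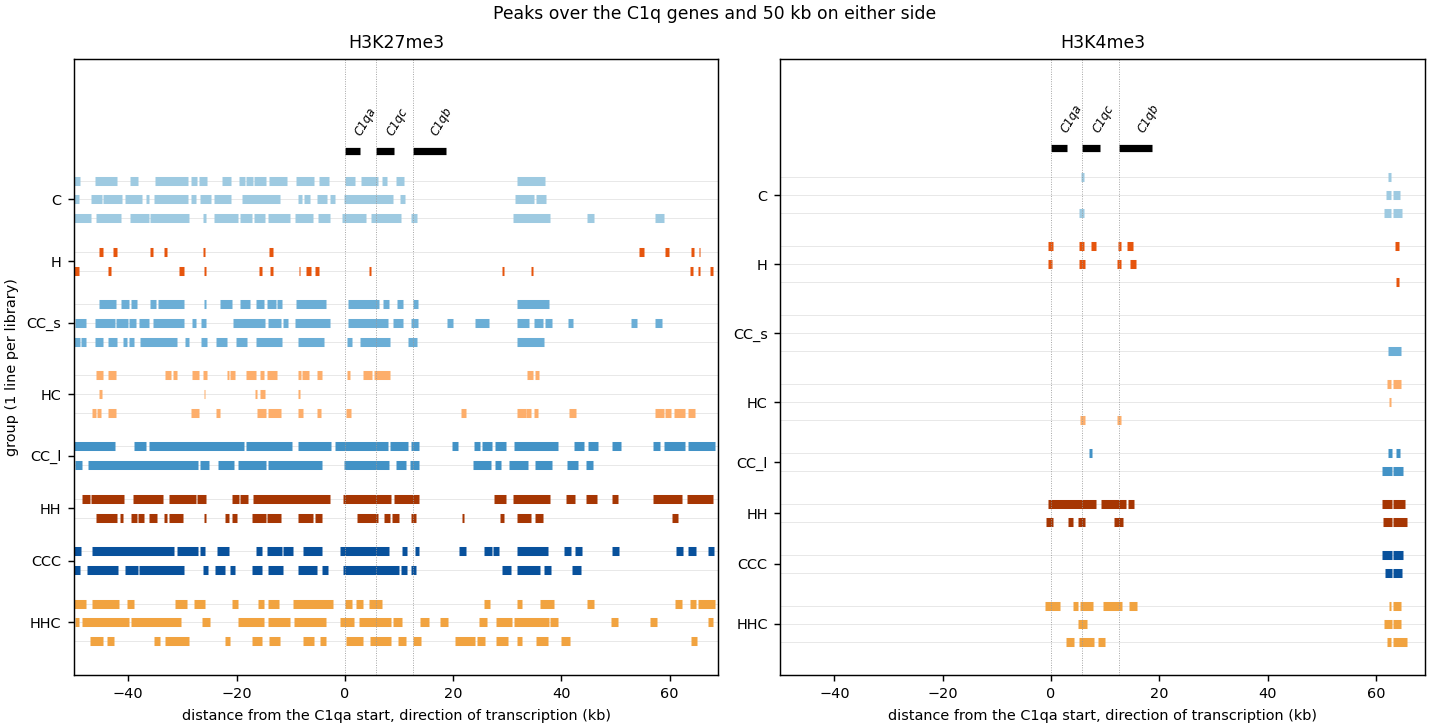
Peaks of H3K4me3 and H3K27me3 (bars) over the C1q cluster in every library, drawn by distance from the C1qa start in kb along the direction of transcription, with the 3 genes as black bars and 1 line per library. H3K27me3 blocks span the cluster in the control groups and are broken or missing in H and HC. The widest H3K4me3 peak lies in 1 library, HH replicate 2 by title (CCC by the treatment entry).

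The loss reached beyond the promoters. Of the whole C1q cluster with 50 kb either side, H3K27me3 covered 35.8, 42.1 and 48.9% in C against 4.94 and 7.06% in H, and 34.6, 48 and 35.7% in CC_s against 18.8, 2.07 and 19.7% in HC. In the older cohort it covered 72.8 and 56.6% in CC_l against 61.9 and 30.6% in HH, and 51.3 and 43.1% in CCC against 34.5, 53.8 and 34.5% in HHC. Only in the 12-week cohort were the groups fully apart. This stretch also holds parts of the coding genes Epha8 and Ephb2, so the share is not of the C1q genes alone. The share fell by 27.4 points with obesity (exact permutation p = 0.0333; -36.3 points in the 12-week and -18.5 in the 25-week cohort) and fell by 16.1 points after weight loss (exact permutation p = 0.03; -25.9 and -6.29 points). Of all protein-coding genes with their flanks, 9.85% passed for a lower share in obese mice and 9.33% after weight loss.

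The genome-wide extent of H3K27me3 was lower in H and HC as well. HHC libraries covered more of the genome than CCC libraries, while the C1q share difference there was -6.29 points. Peaks covered 43.03 to 64.14 Mb in C and 16.85 to 19.97 Mb in H, 43.2 to 60.5 Mb in CC_s and 8.54 to 36.3 Mb in HC. In the 25-week cohort the ranges were 69.3 to 109.6 Mb in CC_l, 50.1 to 101 Mb in HH, 61.4 to 70.4 Mb in CCC and 78.0 to 82.9 Mb in HHC. An alternative chosen after the data were seen scaled each library's share to the same total length under peaks, with no peak removed. The share then fell by 18.1 points with obesity (exact permutation p = 0.0167). After weight loss it fell by 14.04 points (exact permutation p = 0.03). More of the members' locus shares passed under this scaling than without it. The alternatives were run on the members alone, so no share over all genes stands beside their values. With equal peak numbers the differences were -28.5 points (exact permutation p = 0.0333) and -16.9 points (exact permutation p = 0.02), and C1qb presence after weight loss fell by 100 points (exact permutation p = 0.005). In a window of 5000 bp either side, by contrast, the C1qa difference in presence was -25 points with obesity (exact permutation p = 0.4) and the C1qb difference -50 points after weight loss (exact permutation p = 0.2). Of the 9 libraries of the obese contrast, leaving out any 1 other than HH replicate 2 left C1qa presence and the locus share above the 0.05 threshold (exact permutation p = 0.0667 to 0.167), with the smallest differences, -50 and -19.6 points, without HH replicate 3.

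**Figure D3:**
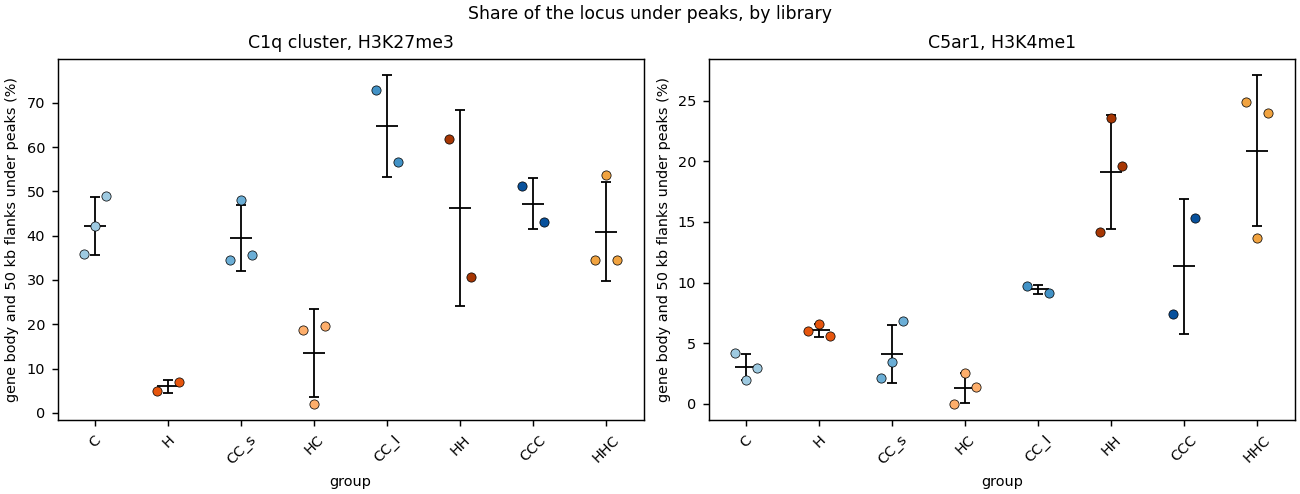
Share (%) of the C1q cluster under H3K27me3 peaks and of the C5ar1 locus under H3K4me1 peaks, each with 50 kb either side, by diet group, with 1 point per library and bars for the group mean and SD. H and HC lie apart from C and CC_s at the C1q cluster in H3K27me3, and the H and HH points lie above C and CC_l at C5ar1 in H3K4me1.

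The 4 marks were profiled on nuclei of the same animals, and 20 animals had both H3K4me3 and H3K27me3. Libraries were joined by title. With the treatment entry, 2 control libraries would carry H3K4me3 at C1qa and C1qb. By title, all 10 control animals carried H3K27me3 alone at C1qa and C1qb. At C1qb in C replicates 1 and 2 it only touched the edge of the window. Among the 10 diet animals, C1qa carried H3K4me3 alone in 3, both marks in 2, H3K27me3 alone in 4 and neither in 1. C1qb carried H3K4me3 alone in 4, both in 2, H3K27me3 alone in 2 and neither in 2. At C1qc both marks were present in 9 animals, 3 of them controls. C3 carried H3K4me3 alone in 15 and Cfb in 18 of the 20. These states describe pools of nuclei, and whether both marks sat on the same chromosomes cannot be told apart from a mix of nuclei.

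C3 was broadly marked in all groups. Its H3K27ac width was 2149, 3863 and 2222 bp in C, 1158, 0 and 453 bp in H, 1160 and 2221 bp in CC_s, and 802, 928 and 940 bp in HC. It was 2851 and 2596 bp in CC_l, 1746, 3682 and 1816 bp in HH, 4001 and 1573 bp in CCC, and 2305, 3675 and 3686 bp in HHC. H and HC lay below their controls with no overlap, and the 25-week groups overlapped. The difference in obese mice was -1258 bp (exact permutation p = 0.07). H3K4me3 over C3 was absent in 4 libraries (H replicate 3, CC_s replicates 1 and 2, and HC replicate 2), and H3K4me1 in HC replicate 3 alone.

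At Cfb, H3K27ac covered 3560, 3301 and 1998 bp in C against 771, 323 and 772 bp in H. It covered 3097 and 4079 bp in CC_l against 0, 3080 and 2205 bp in HH. Every obese library was below every control of its cohort. The width fell by 2079 bp in obese mice (exact permutation p = 0.01), with differences of -2331 bp in the 12-week and -1826 bp in the 25-week cohort. A smaller width was common in this contrast, passing at 16.9% of promoters, and the median over all promoters tested was -340 bp. After weight loss, values were 1491 and 2132 bp in CC_s, 1166, 672 and 882 bp in HC, 4346 and 1424 bp in CCC, and 4264, 3509 and 4346 bp in HHC. With widths scaled to equal total length under peaks, the alternative added later, the obese difference was -1025 bp (exact permutation p = 0.135). H3K27ac-covered length in the genome was 42.8 to 49.0 Mb in C and 9.60 to 24.4 Mb in H, and its part in the result was tested only by that alternative.

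H3K4me3 over Cfb was 2398, 3203 and 3022 bp in C against 660, 1069 and 1040 bp in H, but 2423 and 3210 bp in CC_l against 2980 and 3477 bp in HH. H lay below C with no overlap and HH overlapped CC_l, and the difference between the cohorts was not tested for width. The obese difference was -770 bp by title (exact permutation p = 0.117) and -585 bp by the treatment entry (exact permutation p = 0.35). After weight loss the H3K4me3 width was 1065, 1301 and 2859 bp in CC_s, 1634, 496 and 0 bp in HC, 4101 and 4254 bp in CCC, and 2732, 4233 and 2603 bp in HHC, a difference of -1010 bp (exact permutation p = 0.075) and of -691 bp by the treatment entry (exact permutation p = 0.215). H3K4me1 over Cfb differed by -1015 bp in obese mice (exact permutation p = 0.06). H3K27me3 touched the Cfb promoter in 1 library, with 423 bp in H replicate 1.

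**Figure D4:**
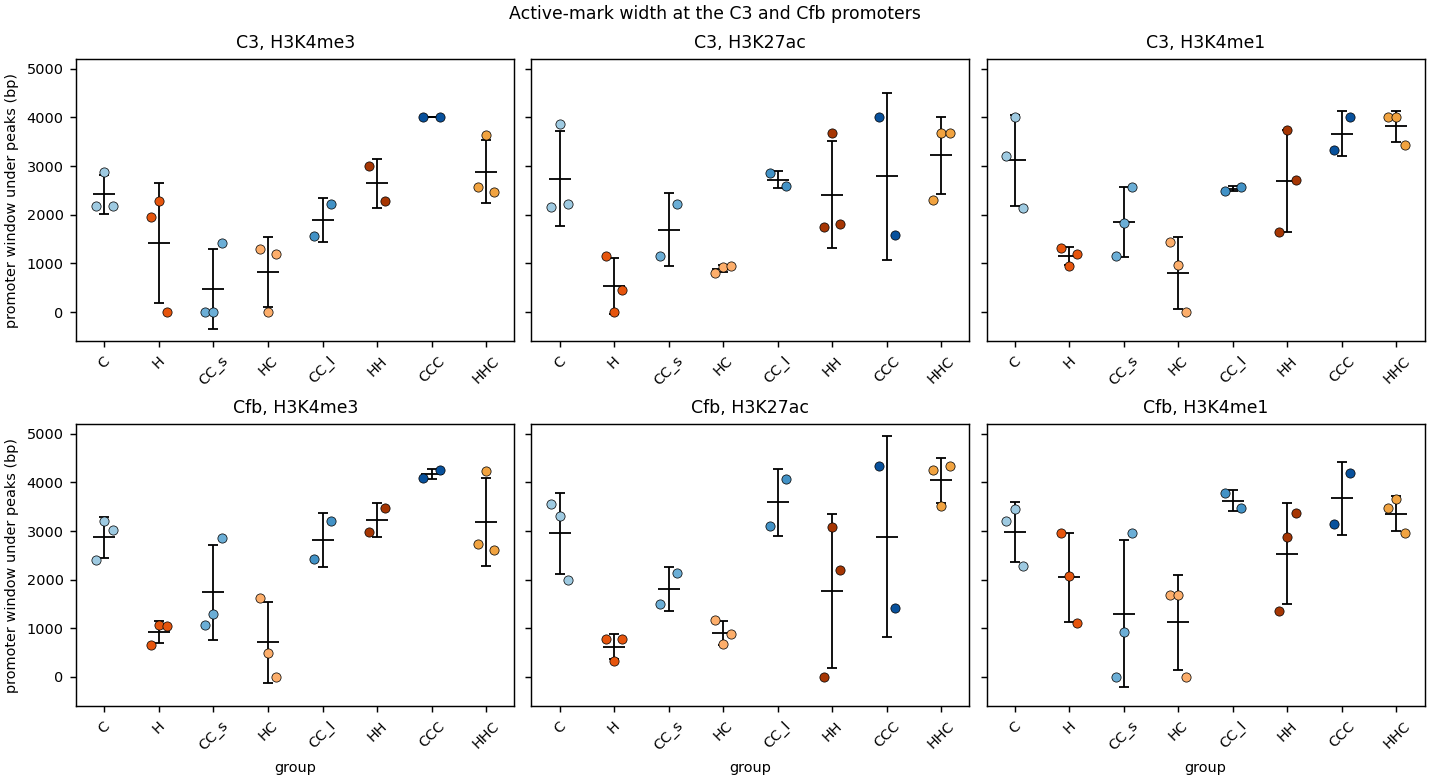
Base pairs of the C3 and Cfb promoter windows under H3K4me3, H3K27ac and H3K4me1 peaks by diet group. Points are libraries and bars are the group mean and SD. At Cfb the H libraries lie below the C libraries in H3K4me3 and H3K27ac.

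Over the Cfb locus with 50 kb either side, H3K27ac covered 14.9, 16.4 and 4.63% in C, 4.29, 1.10 and 1.04% in H, 23.9 and 27.1% in CC_l, and 12.8, 19.4 and 10.3% in HH. In obese mice the share fell by 10.6 points (exact permutation p = 0.015), in a contrast where 25.7% of all genes passed for a lower share. H3K27me3 over this locus was 0% in all 10 control libraries, 0.688 and 0.439% in H, and 1.36 and 0% in HH. It rose by 0.622 points with obesity (exact permutation p = 0.05), with 2.64% of genes passing for a higher share. That call was lost without any of 8 of the 9 libraries (highest exact permutation p = 0.267), and the difference ranged from 0.282 points, without HH replicate 2, to 0.963 points, without HH replicate 3. In all, 5 of 40 comparisons of a locus, mark and contrast passed, and over all genes 11.9% of such comparisons did.

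The receptor C3ar1 followed C1qa in H3K4me3. Its width was 565, 954 and 0 bp in H, 1238 and 842 bp in HH, 1375, 0 and 0 bp in HHC, and 0 bp in all 10 control and 3 HC libraries. Presence was 83.3 points higher and width 773 bp larger in obese mice (exact permutation p = 0.0667 for each), and presence ranged from 75 to 100 points on leaving out 1 library, passing only without H replicate 3, the one obese library that lacked the peak. With the treatment entry the difference was 8.33 points (exact permutation p = 1) and 2 control libraries carried the peak. H3K27ac marked C3ar1 in 2 libraries, with 706 bp in H and 1147 bp in HH. H3K27me3 also marked it in 2, with 824 bp in CC_s and 1080 bp in HHC, so the gene lacked the Polycomb cover seen over C1q.

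C5ar1 was marked by H3K4me3 in 2 of 10 control and 7 of 11 diet libraries by title (4 controls by the treatment entry). The widths were 0, 632 and 0 bp in C, 810, 0 and 0 bp in H, 0 bp in all CC_s, 0, 0 and 396 bp in HC, 321 and 0 bp in CC_l, 2249 and 1213 bp in HH, 0 bp in both CCC, and 2038, 1640 and 1143 bp in HHC. All HHC libraries stood above both CCC libraries. Presence rose by 66.7 points and width by 870 bp after weight loss (exact permutation p = 0.05 for each), but presence differed by 0 with equal peak numbers (exact permutation p = 1) and by 41.7 points by the treatment entry (exact permutation p = 0.2). H3K27ac marked C5ar1 in 5 diet libraries, 636 bp in HC, 1409 and 1458 bp in HH, and 2175 and 1644 bp in HHC, and in no control library.

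Around C5ar1, H3K4me1 covered 4.15, 1.96 and 2.97% of the gene and its 50 kb flanks in C, 5.99, 6.6 and 5.58% in H, 9.68 and 9.18% in CC_l, and 14.2, 23.6 and 19.6% in HH. Every obese library lay above every control of its cohort although the promoter itself carried no H3K4me1 peak in any library. The share rose by 6.37 points (exact permutation p = 0.01), while 10.6% of genes passed for a higher share and the adjusted value over all genes was 0.204. With flanks of 20 kb the difference was 4.63 points (exact permutation p = 0.245). The 50 kb flanks also hold all or part of 5 other coding genes.

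Macrophage and endothelial markers moved with the C1q and receptor promoters (the plot of members against macrophage markers), whereas mesothelial markers did not. Of 15 macrophage markers, none a complement gene, 14 or 15 had an H3K4me3 peak in HH and all 15 in every HHC library, against 6 or 7 in CC_l and 4 to 9 in CCC. With the treatment entry the obese pair turned around, with 6 and 4 markers in HH and 7 and 14 in CC_l, and CCC had 9 and 15. The range was 5 to 8 in C, 0 to 15 in H, 0 to 3 in CC_s and 1 to 9 in HC. Libraries with a C1qa or C3ar1 peak had 13 to 15 of the markers marked and those without 0 to 15. For C1qb the ranges were 9 to 15 and 0 to 15, for C1qc 5 to 15 and 0 to 9, and for C5ar1 7 to 15 and 0 to 15. In CC_l, Adgre1, Csf1r, Ptprc, Lyz2, Mrc1, Mpeg1 and Ctss were unmarked in both libraries. The rest of the list (Cd68, Tyrobp, Fcer1g, Cd14, Spi1, Laptm5, Cd53 and Aif1) had a peak in at least 1 CC_l library. In HH no marker of the list was unmarked in both libraries. For H3K27ac the list counted 3 of 15 in C, 0 to 9 in H, 2 or 3 in CC_s, 0 to 12 in HC, 4 or 5 in CC_l, 8 to 11 in HH, 2 to 7 in CCC and 9 to 15 in HHC. Their part in the results was not tested.

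Among 8 endothelial markers, H3K4me3 marked 3 to 5 in C, 0 to 8 in H, 0 to 2 in CC_s, 1 to 6 in HC, 4 to 6 in CC_l, 8 in HH, 3 in CCC and 5 to 7 in HHC. Of 5 neutrophil markers, H3K4me3 marked 0 in C, CC_s and HC, 0 to 2 in H, 0 or 1 in CC_l and CCC, 2 in HH and 1 or 2 in HHC. Of 7 mesothelial markers it marked 1 to 3 in C, 0 in H, 0 or 1 in CC_s and HC, 2 or 3 in CC_l and HHC, and 2 in HH and CCC. Of 8 fibroblast or progenitor markers it marked 5 or 6 in C and CCC, 0 to 6 in H, 1 to 5 in CC_s, 2 to 4 in HC, 5 in CC_l, 6 or 7 in HH and 4 to 7 in HHC. The endothelial counts by the treatment entry were 4 and 3 in HH, 6 and 8 in CC_l, and 3 and 8 in CCC. All 10 adipocyte markers were marked in every control library in both H3K4me3 and H3K27ac, and 7 to 10 in diet libraries. In each mark 3 diet libraries were below 10, namely H replicate 2 (9), HC replicate 3 (9) and HHC replicate 3 (7) in H3K4me3, with 15, 9 and 15 macrophage markers, and HH replicate 1 (7), HC replicate 3 (8) and HHC replicate 3 (8) in H3K27ac, with 11, 12 and 12. Diet libraries with all 10 had 0 to 15 macrophage markers in each mark. In H3K4me3 the lowest was H replicate 3, and HH replicate 2 and HHC replicates 1 and 2 had 15. In H3K27ac H replicate 3 and HC replicates 1 and 2 had 0, and HHC replicate 1 had 15. Over the macrophage markers H3K27me3 was rare, with 0 or 1 of 15 in C, H, CC_s and HC alike, and 0 to 6 in the 25-week groups.

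**Figure D5:**
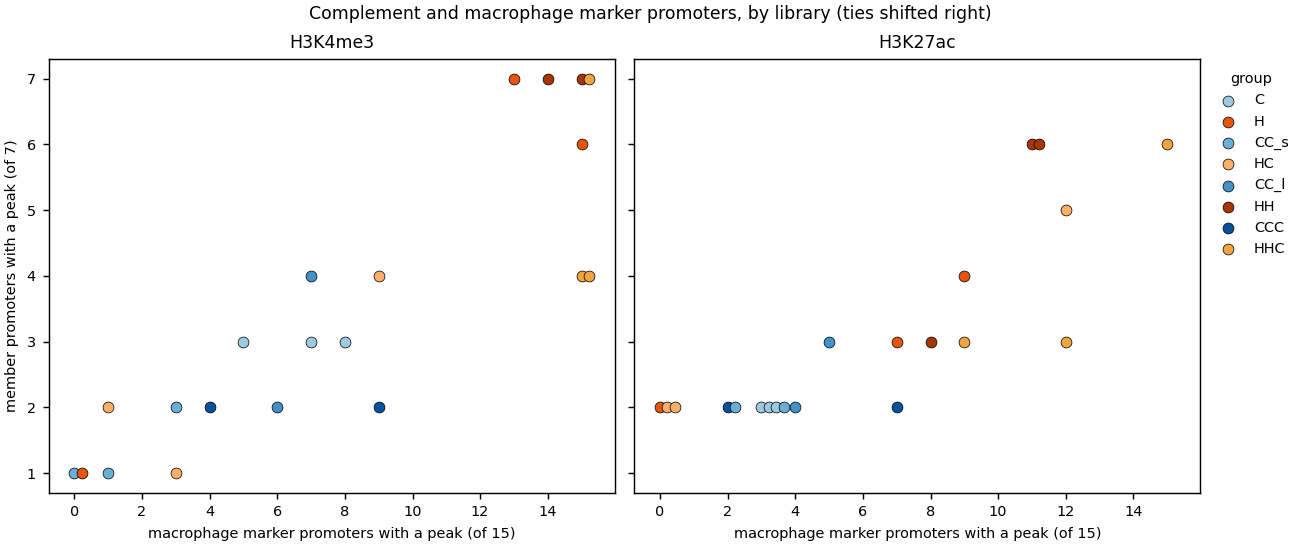
Number of the 7 member promoters with an H3K4me3 (left) or H3K27ac (right) peak on the vertical axis against the number of 15 macrophage marker promoters with one on the horizontal axis, 1 point per library and coloured by diet group. In H3K4me3, HH and HHC libraries hold 14 or 15 markers and 4 to 7 members, and CC_l and CCC libraries 4 to 9 markers and 2 to 4 members, all by title. With the treatment entry the HH points would be those at 6 and 4 markers.

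Regions outside all promoter windows were examined for the enhancer marks. Of 59399 such H3K27ac regions, 37 overlapped a member or lay within 50 kb of one, 11 of them at C3, 10 at C5ar1, 8 at C3ar1, 7 at Cfb and 1 at the C1q cluster. H3K4me1 gave 24 of 54813 regions, with 9 at C5ar1, 5 at C3, 5 at C3ar1, 4 at Cfb and 1 at the C1q cluster. Across both marks and contrasts, 3 comparisons passed. In H3K27ac 1 of 23 regions tested near members passed in obese mice and 0 of 31 after weight loss. Over the genome 2318 of 40085 and 293 of 48601 regions passed. In H3K4me1 1 of 18 and 1 of 21 passed near members, and 2016 of 40715 and 1789 of 47282 over the genome.

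Near Cfb, the H3K27ac region chr17:34886141-34889395, at -25250 bp from the Cfb start and within C2 and Zbtb12, had a peak in 1 of 3 C, 0 of 3 H, 2 of 2 CC_l and 0 of 3 HH libraries. In obese mice presence fell by 66.7 points (exact permutation p = 0.05), a direction in which 5.15% of regions passed, and 4.02% of regions were likewise present in every CC_l and no HH library. The H3K4me1 region chr17:34839412-34842358, at 21633 bp and within Skiv2l, also fell by 66.7 points (exact permutation p = 0.05, 2.74% of regions) and was likewise lost in HH, as 5.01% of regions were. Near C5ar1, the H3K4me1 region chr7:16294125-16298468, at -36757 bp from its start and in no coding gene, was present in 1 of 3 HC and 3 of 3 HHC libraries and in no CC_s or CCC library. It rose by 66.7 points after weight loss (exact permutation p = 0.05, 1.96% of regions), and 3.77% of regions were present in every HHC and no CCC library. The same region was marked in 2 of 2 CC_l and 3 of 3 HH libraries, and in none of C or H.

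A further 3 regions met the rule of all libraries of one group and none of the other without passing the test. The H3K27ac region chr17:57218476-57221432, inside C3 at 8182 bp from its start, was present in every HHC and no CCC library (3.32% of regions). The H3K27ac region chr17:34821952-34826814 in Stk19, at 38135 bp from the Cfb start, was present in every CC_s and no HC library (3.74%). The H3K4me1 region chr17:57267034-57269349, at -40056 bp from the C3 start, was present in every CC_l and no HH library.

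For the rest of the pathway, 43 further complement genes were found in the annotation. They gave 188 comparisons with a peak, of which presence passed in 6 (1 higher, 5 lower) and width in 15 (1 higher, 14 lower). For the members presence had passed in 5 of 44 (3 higher, 2 lower) and width in 8 (3 higher, 5 lower). Over all promoters 1.67% of presence and 7.88% of width comparisons passed, and the lists were not tested against each other. The median width difference of H3K4me3 in obese mice was 815 bp for the members with a peak, -271 bp for the other complement genes and -216 bp for all promoters tested. The median of the members was -153 bp by the treatment entry. For H3K27ac in obese mice the 3 medians were 309, -362 and -340 bp. After weight loss they were 463, 66 and 102 bp in H3K4me3 (members -129 bp by the treatment entry) and 337, 206 and 360 bp in H3K27ac. In H3K4me1 they were -908, -267 and 171 bp in obese mice and -346, -105 and 269 bp after weight loss. In H3K27me3 they were -302, 179 and -191 bp and then -352, 181 and 42.8 bp.

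Cfd, which encodes the adipocyte serine protease factor D that cleaves factor B, had H3K4me3 and H3K27ac peaks in C and none in H. Its H3K27ac width was 3801, 3845 and 2727 bp in C and 0 bp in all 3 H libraries, 4001 bp in both CC_l, and 0, 3925 and 4001 bp in HH. In obese mice presence fell by 66.7 points (exact permutation p = 0.05) and width fell by 2408 bp (exact permutation p = 0.035). H3K4me3 covered 3240, 3633 and 2801 bp in C and 0 bp in H, but 3175 and 3745 bp in CC_l and 4001 and 2537 bp in HH. The obese difference in H3K4me3 presence was -50 points by title and by the treatment entry (exact permutation p = 0.1 for each). After weight loss Cfd had an H3K4me3 peak in 1 of 3 CC_s, 0 of 3 HC, 2 of 2 CCC and 2 of 3 HHC libraries, and it had no H3K27me3 peak in any library. H3K4me1 over Cfd covered 3008, 0 and 2032 bp in C and 1337, 949 and 1106 bp in H. For lower H3K27ac presence in obese mice 1.33% of all promoters passed, and for smaller H3K27ac width 16.9%. An H3K27ac peak in every C and no H library was seen at 3.94%.

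Of the other initiators, H3K4me1 over Fcnb (ficolin B, a lectin-pathway recognition protein) fell by 83.3 points after weight loss (exact permutation p = 0.02), with a peak in 2 of 3 CC_s, 0 of 3 HC, 2 of 2 CCC and 0 of 3 HHC libraries. For lower H3K4me1 presence after weight loss 0.242% of promoters passed, and 0.802% were marked in every CCC and no HHC library. H3K27ac over the protease genes Masp2 and C1ra fell by 66.7 points each with obesity (exact permutation p = 0.05 for each), the direction in which 1.33% of promoters passed. Masp2 had a peak in 3 of 3 C and 0 of 3 H libraries, as 3.94% did, and C1ra in 2 of 2 CC_l and 0 of 3 HH, a pattern of 0.650% of promoters. Among terminal components, H3K27me3 over C8b fell by 66.7 points after weight loss (exact permutation p = 0.05, with 1.88% of promoters passing). Among receptors, H3K4me3 over Itgb2, the beta chain of complement receptors 3 and 4, rose by 66.7 points after weight loss (exact permutation p = 0.05), with no peak in CC_s or CCC, 1 of 3 in HC and 3 of 3 in HHC, and 1.00% of promoters passed in that direction. With the treatment entry the difference was 41.7 points (exact permutation p = 0.2).

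Over the 21 H3K4me3 libraries, the promoters most like C1qa in presence and absence were C3ar1 and Ctla2b, both alike in all 21. C1qb was closest to C3ar1, Ctla2b and Gpr35, among 4 promoters alike in 20 libraries. C1qc was closest to Ly6c1 (21), then to Cd180 and Nckap1l, among 4 promoters at 20. Within a tie, names were taken in alphabetical order. C5ar1 was closest to Bin2 (21), then to Ecscr and Fam169b, among 10 promoters at 20. C3 tied with 139 promoters at 21 of 21, of which the first in alphabetical order were Adora2a, Afap1l2 and Agbl2, so that its pattern singled out no gene. Over the 20 H3K27me3 libraries C1qa matched Gm3250, Krt27 and Olfr313, among 4 promoters alike in all 20. C1qb matched Gmnc, Lsp1 and Myf6, among 7 promoters alike in all 20. C5ar1 matched Cavin3 and Cpne8 in all 20, and 1190005I06Rik was the first by name of 53 promoters at 19. The points share library and depth, and the likeness is a description with no test.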

How the data were processed

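CUT&Tag was run on pulled-down adipocyte nuclei, and the deposited files are 84 peak lists, 1 per library. Per the study's methods and the submitters' processing notes, the authors trimmed reads with Trim Galore 0.6.6, aligned them to mm10 with Bowtie2 2.4.4, processed them with SAMtools 1.13 and bedtools 2.30 and called peaks in each library with SEACR 1.3, keeping the top 1% of blocks. Each deposited peak carries its total and highest signal (coverage), which the authors did not scale between libraries; signal was used here only to rank peaks within a library and to thin lists. Depth per library is not in the files used, so its precision is unknown.

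Promoter windows ran 2000 bp either side of 41438 start sites of 21851 protein-coding genes (GENCODE M21 basic, GRCm38, the sequence of mm10). A peak touching a window by 1 bp counted as present, and width was the merged bp covered. Locus shares used gene body and 50 kb flanks. Exact two-sided permutation tests within cohorts ran over all promoters, loci or distal regions, with Benjamini-Hochberg adjustment over all of them, in Python 3.11.15 with NumPy 2.4.6 and pandas 2.3.3, and were checked on simulated data. The relabellings numbered 60 to 200 per mark and contrast. Groups were taken from sample titles, and in 4 H3K4me3 libraries the treatment entry differs. Replicates are labelled biological replicates. Each animal's nuclei served all marks.

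Members and gene lists were chosen with earlier results of these data known. Named genes were all members, Cfd, up to 8 complement genes with p at most 0.05 for presence, distal regions passing the test or present in all libraries of 1 group and none of the other (at most 12), and, for members present and absent in at least 4 libraries each, the 3 promoters over 100 kb away most alike. C4a, the 44th gene of the pathway list, was not analysed here. The alternatives were windows of 500 and 5000 bp, 200 bp of overlap, the gene record's start alone, equal peak numbers and the strongest 50% of peaks. Others were a replicate block, the treatment entry, 20 kb flanks and leaving out each library. Added after the data were seen was a scaling of widths and shares to equal total length under peaks, with no peak removed.

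Replicate numbers recur across groups, but same-numbered libraries of a diet group and its control deviated together in few cases. Of 36 pairs, 4 had a correlation above 0.1 (range -0.146 to 0.217, median 0.00573), so the numbers were not taken to pair animals between groups.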

Additional observations from a re-analysis of the deposited data

How the results depend on the processing

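Widths, presence and locus shares depend on how many blocks each library's list holds, and the lists carry no depth, so a missing peak was not detectable at this depth rather than absent. With 2 or 3 libraries per group the smallest exact permutation p was 0.005 to 0.0167, and 0 promoters passed after adjustment. Alternatives other than leaving out a library were scored by 3 rules. Of the differences in marked member promoters, 46 of 58 moved by no more than the replicate spread. For single members, loci and regions, 164 of 221 values stayed on the same side of the 0.05 threshold. Another 54 lost and 3 gained that threshold, and no called value turned its direction. Of the counts, 26 of 40 were equal to the main count or within 1.5-fold of it.

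The causes of the following changes were not tested. With equal numbers of peaks the difference in marked member promoters changed from 2.00 to -0.167 (H3K4me3, weight loss), from 1.75 to -0.167 and from 1.5 to -0.0833 (H3K27ac, obese and weight loss), from 0.167 to -0.333 (H3K4me1, obese) and from -0.667 to -1.83 (H3K27me3, weight loss). Calls fell to 2 for presence, 5 for width, 1 for distal regions and 3 for promoters present in all libraries of 1 group and none of the other, from 5, 8, 3 and 9. With the strongest 50% of peaks the obese differences were 0.583 (H3K4me3), -0.333 (H3K27ac) and -0.333 (H3K4me1), and the same 4 counts were 2, 5, 1 and 3. With windows of 5000 bp the obese differences were 0.5 (H3K4me1) and -0.5 (H3K27me3), and 3 presence calls were made. By the treatment entry the H3K4me3 obese difference was -0.917, with 3 presence calls, and its values for Cfd, Itgb2, the markers and the members' median were added after seeing the data. With shares scaled to equal total length under peaks, 14 locus shares passed instead of 5.

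With a replicate block the H3K27me3 obese difference was -0.5 and presence, width and locus calls were 0, but the smallest p the block allows is 0.25 in that contrast and 0.0625 to 0.25 over all marks and contrasts, so it cannot pass 0.05 and says nothing of stability. The pairing by number is not given by the labels.

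Leaving out 1 library at a time gave 2 (without CC_s replicate 1) to 8 (without H replicate 3) presence calls, 4 to 12 width calls (the same libraries), 3 (without C replicate 1) to 8 (without CC_s replicate 3) locus calls, 1 (without H replicate 1) to 3 distal calls and 9 to 13 (without H replicate 3) promoters present in all of 1 group and none of the other. The difference in marked member promoters ranged from 2.25 to 3.75 and 1.5 to 2.33 (H3K4me3, obese and weight loss), 1.5 to 2.25 and 1.00 to 1.75 (H3K27ac), 0 to 0.25 and -0.333 to 0.167 (H3K4me1, the latter turning without HC replicate 3), and -1.25 to -0.750 and -0.833 to -0.333 (H3K27me3). Presence calls with p = 0.05 after weight loss (C1qc and C5ar1 in H3K4me3, C1qb in H3K27me3) and at the 3 distal regions were lost without any of 9 of 11 libraries (highest exact permutation p = 0.167), and the H3K27ac gain at C1qc without any of 6 of 11 (highest exact permutation p = 0.0667).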
